A study of Apis cerana with 9 samples.

Results

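The peroxisome genes of the proboscis transcriptome of Apis cerana were taken from the deposited gene table by its KEGG column. Of 12757 genes, 83 carried the KEGG term Peroxisome. From these, 11 fatty acyl-CoA reductases and 1 gene that also carried the term Citrate cycle were left out, which gave 71 genes. The proboscis is the sucking mouthpart of the bee. RNA-seq libraries of this organ were made from bees that carried pear pollen, bees that carried rapeseed pollen and bees that carried no pollen, here called pear, rapeseed and non-pollen, with 3 libraries in each group. The labels give no genotype, age, colony, treatment or collection day, and do not say whether a library is 1 bee or a pool, and p-values thus cover the spread between libraries alone, whatever its source. What distinguishes the groups beyond the pollen load therefore cannot be told apart from it.

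Peroxisomes are small organelles with a single membrane in which very-long-chain and branched fatty acids are shortened by beta-oxidation. The first step of that pathway, catalysed by acyl-CoA oxidases, passes electrons directly to oxygen and releases hydrogen peroxide, which catalase breaks down in the same organelle. Peroxins build the organelle and import its enzymes from the cytosol. The first reactions of ether lipid synthesis, the oxidation of D-amino acids and part of purine breakdown also take place in peroxisomes, and in insects the organelle is known from fat body and oenocytes, the cells that handle lipids. Peroxiredoxins and superoxide dismutases, which KEGG places in the same map, work largely in the cytosol and in mitochondria.

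By their descriptions the 71 genes fell into 13 peroxins, 9 membrane proteins and transporters, 10 antioxidant enzymes and 11 enzymes of beta-oxidation and related steps. A further 4 were enzymes of ether lipid and isoprenoid synthesis, 6 of amino acid and purine oxidation and 7 were other enzymes. The remaining 11 had a description that went against their KEGG entry, such as an ionotropic glutamate receptor annotated as an acyl-CoA oxidase, and are given apart. The members lay on 53 scaffolds. Of the 71, 24 overlapped another gene model, 9 of them on the same strand and 15 only on the opposite strand. Whether counting used strand is not given in the sources used here, so reads of overlapping genes cannot be assigned with certainty. Genes with an FPKM (the authors' level per gene length and per library size) of 1 or more in 3 or more libraries were tested, and 64 of the 71 members passed. The other 7 were 2 peroxiredoxins (LOC108000574 and LOC114578036), 1 D-aspartate oxidase (LOC108002807) and 4 genes with conflicting annotation, and none of them exceeded an FPKM of 0.811 in any library. Of the tested members, 62 reached an FPKM of 1 in all 9 libraries, LOC107997652, an uncharacterized protein with the KEGG entry of a peroxisomal membrane protein, did so in 7, and the glutamate receptor-like LOC107994104 in 6, of which 3 were non-pollen.

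Total counts were 45447582 to 46167296 in the pear libraries, 49085060 to 53518340 in the rapeseed libraries and 43034759 to 64306245 in the non-pollen libraries. The groups differed widely in composition. Genes of the head glands (39 genes, among them the major royal jelly proteins) summed to 7727 to 10797 CPM in pear and 7158 to 7531 CPM in rapeseed, against 465853 to 485799 CPM in non-pollen libraries, with none at 0 in pear and 1 at 0 in each of the other groups, and of 25 tested 7 were higher and 14 lower in pear and 8 higher and 12 lower in rapeseed, while library totals gave 12 higher and 10 lower in both. CPM are counts scaled by library size after TMM. Photoreceptor genes (11 genes) summed to 37.9 to 46.4 CPM in pear and 40.8 to 42.1 CPM in rapeseed, against 998 to 1043 CPM in non-pollen libraries, with 7 of 8 tested lower and none higher in both pollen groups. Muscle genes (26 genes) were at 72044 to 77526 CPM in pear and 74028 to 74218 CPM in rapeseed, against 49266 to 51968 CPM in non-pollen libraries, with 19 of 25 tested higher in both pollen groups, 4 lower in pear and 5 lower in rapeseed. Genes of fat body and oenocytes (52 genes) summed to 6635 to 7164 CPM in pear and 7351 to 7372 CPM in rapeseed, against 7207 to 7629 CPM in non-pollen libraries, with 12 of 36 tested higher and 15 lower in pear and 13 higher and 19 lower in rapeseed. With library totals, the CPM of this list without TMM were 7738 to 8010 in pear and 8152 to 8186 in rapeseed, against 5765 to 5900.5 in non-pollen libraries, with 21 higher and 8 lower in pear and 19 higher and 9 lower in rapeseed. The part of these other tissues in the levels of the peroxisome genes was not tested, and in libraries of a whole organ fewer cells of a type and less RNA per cell cannot be told apart. TMM sets the bulk of tested genes to no change. Scaled by library totals alone, all 9259 tested genes had a median log2 fold change of 0.53 for pear against non-pollen, 0.47 for rapeseed against non-pollen and -0.05 for rapeseed against pear. Higher and lower below therefore mean relative to most genes. For the log2 fold changes of single members, a direction that turns round or a call that changes under library totals is given with its value there.

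Levels of the tested members ran from a mean FPKM of 1.40 to 499 with a median of 21.4. The 5 most abundant were peroxiredoxin 1 (499 FPKM over all libraries), a chloroplastic-like Cu-Zn superoxide dismutase (421), a Cu-Zn superoxide dismutase (410.5), catalase (388) and a xanthine dehydrogenase/oxidase-like gene (353). These 5 took 51.3% to 52.5% of all CPM of the members in the pear libraries, 55.2% to 55.8% in the rapeseed libraries and 53.6% to 54.0% in the non-pollen libraries. None of the 13 peroxins and none of the 11 enzymes of beta-oxidation was among them. The median coefficient of variation of the members between replicates was 4.69% in pear, 4.17% in rapeseed and 5.56% in non-pollen. Members named below without their 9 values were chosen after their values had been seen.

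In the pear group 45 of the 64 tested members passed the threshold against non-pollen, which was 70.3% beside 55.7% of all tested genes (edgeR's quasi-likelihood test, Benjamini-Hochberg adjusted p under 0.05). Of these, 15 were higher and 30 lower under TMM, while library totals gave 37 higher and 10 lower. Over all 9259 tested genes library totals called 7566, and 91.8% of these calls were higher. Under TMM the 30 lower were 46.9% of the members, beside 27.2% of all tested genes. The 15 higher were 23.4%, beside 28.5%. The median log2 fold change was -0.18 over the members and -0.01 over all tested genes under TMM, against 0.36 and 0.53 with library totals, so the members' median differed from that of all genes by -0.17 under both scalings. In the rapeseed group 44 members (68.8%) were called, beside 59.3% of all tested genes. There, 18 were higher (28.1%, beside 29.3% of all genes) and 26 lower (40.6%, beside 30% of all genes) under TMM. Library totals gave 38 higher and 7 lower members. Over all tested genes library totals called 7207 in rapeseed, and 90.0% of these calls were higher. The median was -0.09 over the members and -0.02 over all genes under TMM, against 0.40 and 0.47 with library totals. Both comparisons share the 3 non-pollen libraries, so their values are given side by side and are not independent. The groups of CPM did not overlap for 49 members (76.6%, beside 59.4% of all tested genes) in pear and for 42 (65.6%, beside 63.3%) in rapeseed. A fold of 2 or more was reached by 6 members in pear and 5 in rapeseed, all of them lower under TMM, beside 6.42% and 7.27% of all tested genes in either direction, while library totals gave 3 higher and 2 lower in pear and 3 higher and 3 lower in rapeseed.

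**Figure D1:**
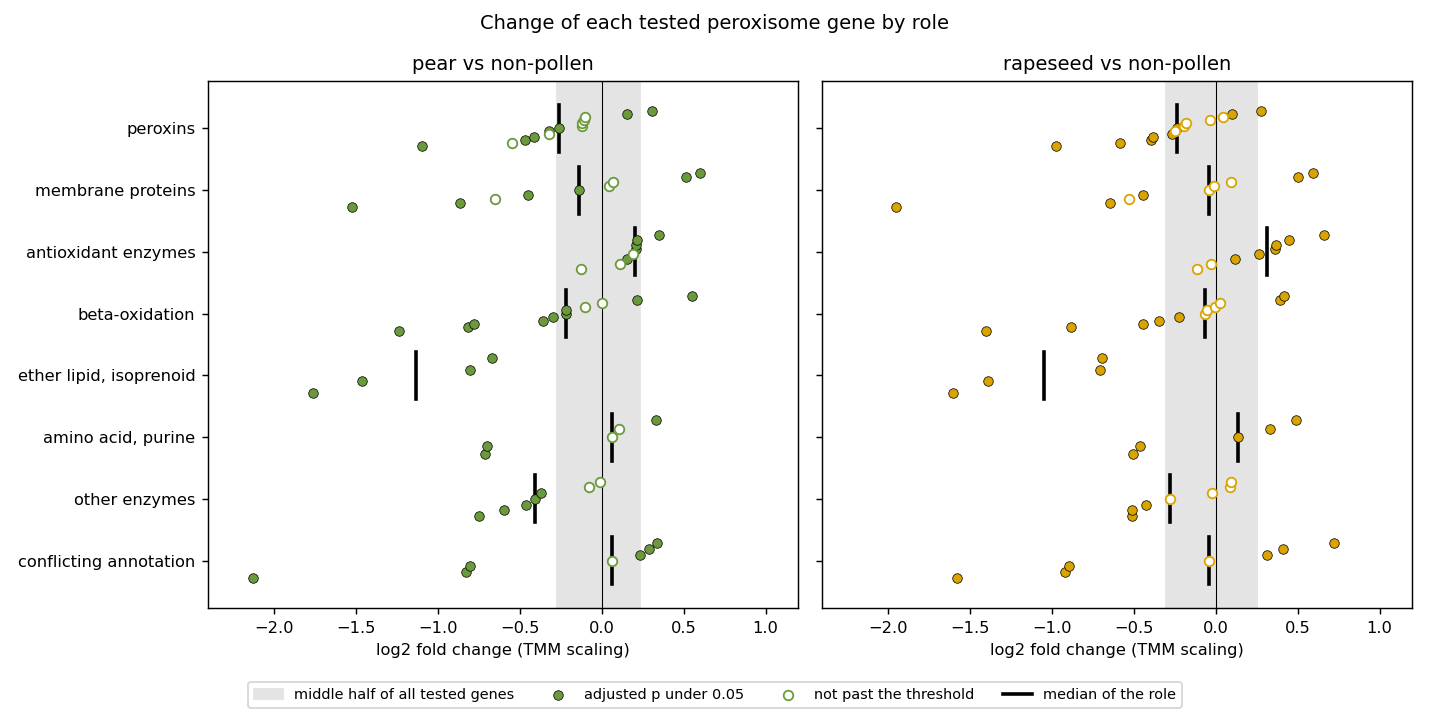
Log2 fold change under TMM scaling (horizontal axis) of each of the 64 tested peroxisome genes, by role, in pear against non-pollen (left) and rapeseed against non-pollen (right). Filled points passed an adjusted p of 0.05, open points did not, black bars are role medians and the grey band is the interquartile range of all tested genes; the 4 genes of ether lipid and isoprenoid synthesis lie left of the band in both panels, and with library totals alone their medians are -0.60 in pear and -0.56 in rapeseed while those of the peroxins turn to 0.27 and 0.25.

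How many of these calls rested on the scaling was counted over 6 ways of scaling the libraries. All 15 members called higher in pear were called higher in each of the 6, and 17 of the 18 in rapeseed. Of the members called lower, 9 of 30 in pear and 7 of 26 in rapeseed were called lower in each. In pear these 9 were PEX16, PMP34, acyl-CoA oxidase 3-like, 2-hydroxyacyl-CoA lyase 1, alkyldihydroxyacetonephosphate synthase, dihydroxyacetone phosphate acyltransferase, the xanthine dehydrogenase/oxidase-like LOC107992582, the D-aspartate oxidase LOC108003311 and the glutamate receptor-like LOC107994104. The 7 in rapeseed were PEX16, PMP34, acyl-CoA oxidase 3-like, alkyldihydroxyacetonephosphate synthase, dihydroxyacetone phosphate acyltransferase, the glutamate receptor-like LOC107994104 and the lipid droplet-associated hydrolase LOC107998526. With library totals alone 13 of the 30 lower members in pear changed sign, 6 of them past the threshold, and 10 of the 26 in rapeseed, 3 of them past the threshold. Library totals and the FPKM fits put the median of all genes at 0.47 to 0.54 in pear and 0.42 to 0.48 in rapeseed. Higher calls were thus kept along this shift and lower calls against it. The counts kept therefore do not compare how firm the higher and lower calls are.

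**Figure D2:**
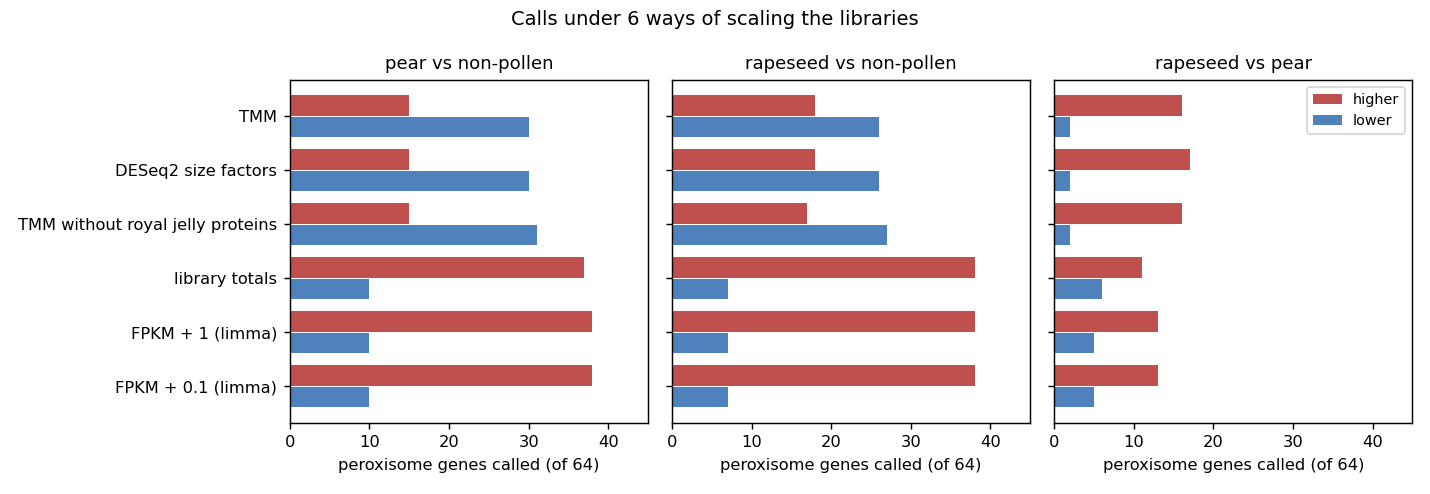
Number of the 64 tested peroxisome genes called higher (red) or lower (blue) at an adjusted p under 0.05 in each comparison (panels), under 6 ways of scaling (rows). The 3 scalings that set most genes to no change give 15 higher and 30 or 31 lower in pear, and the 3 that use library totals or FPKM give 37 or 38 higher and 10 lower.

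Under TMM the antioxidant enzymes, as assigned here, were the role with calls in the higher direction alone. Of its 8 tested members, 5 were called higher for pear and 6 for rapeseed against non-pollen and none lower. Called were thus 62.5% in pear and 75% in rapeseed, beside 55.7% and 59.3% of all tested genes. Calls in the higher direction were 28.5% and 29.3% of all tested genes. Library totals gave 8 higher in both, but 91.8% and 90.0% of the calls over all genes were higher there. Epoxide hydrolase 4-like LOC107996715 was moved from this role to the other enzymes by a correction. It was called lower in pear (-0.75, adjusted p = 0.0106, and -0.21 with adjusted p = 0.405 under library totals). The antioxidant role also holds the uncharacterized LOC107992653, placed by its KEGG entry and called higher in rapeseed (0.26, adjusted p = 0.0282). These counts thus depend on the assignment. The role's median log2 fold change was 0.20 in pear and 0.31 in rapeseed, against 0.74 and 0.80 with library totals. Summed over the 10 genes the level was 2206 to 2328 CPM in the pear libraries and 2617 to 2682 CPM in the rapeseed libraries, against 1893 to 1957 CPM in the non-pollen libraries, and the 3 groups did not overlap. Catalase (LOC107993802, on the plus strand of scaffold NW_016018233.1 from 620721 to 633254) breaks hydrogen peroxide down to water and oxygen and is the enzyme by which peroxisomes were defined. It had 841, 892 and 911 CPM in the pear libraries and 1085, 1111 and 1087 CPM in the rapeseed libraries, against 691, 683 and 704 CPM in the non-pollen libraries. No library of one group overlapped with another, with rapeseed highest and non-pollen lowest. On the log2 scale catalase changed by 0.35 (standard error 0.0335, adjusted p = 1.48e-08) in pear and 0.66 (standard error 0.0336, adjusted p = 3.64e-13) in rapeseed. In the authors' FPKM it stood at 424 ± 9.74 in the pear group, 511 ± 5.74 in the rapeseed group and 228 ± 5.56 in the non-pollen group (SD, n = 3 each).

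Peroxiredoxin 1 (LOC107992656, on the minus strand of scaffold NW_016017889.1 from 311438 to 314386), a thiol peroxidase that reduces peroxides with thioredoxin, had 453, 445 and 478 CPM in the pear libraries and 532, 548 and 544 CPM in the rapeseed libraries, against 411, 386 and 395 CPM in the non-pollen libraries. Its 3 groups were also apart, in the same order as for catalase. The change was 0.21 (standard error 0.0348, adjusted p = 3.41e-05) in pear and 0.45 (standard error 0.0348, adjusted p = 4.3e-10) in rapeseed. Superoxide dismutases turn superoxide into hydrogen peroxide. Of the Cu-Zn forms, LOC108000927, on the minus strand of scaffold NW_016019497.1 from 456939 to 458193, had 324, 339 and 349 CPM in the pear libraries and 369, 384 and 368 CPM in the rapeseed libraries, against 304, 289.7 and 278 CPM in the non-pollen libraries. The rapeseed libraries were highest and the non-pollen libraries lowest, with no overlap. The change was 0.22 (standard error 0.0382, adjusted p = 6.33e-05) in pear and 0.36 (standard error 0.0382, adjusted p = 5.19e-08) in rapeseed.

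The other Cu-Zn form, LOC107996551, whose description names a chloroplastic-like enzyme, had 336, 344 and 344 CPM in the pear libraries and 395, 400.3 and 393 CPM in the rapeseed libraries, against 319.5, 303 and 299 CPM in the non-pollen libraries. Again no groups overlapped, and the change was 0.15 (standard error 0.0335, adjusted p = 0.000576) in pear and 0.37 (standard error 0.0335, adjusted p = 5.16e-09) in rapeseed. The manganese superoxide dismutase of mitochondria, LOC107999352, had 89.8, 87.3 and 91.7 CPM in the pear libraries and 82.1, 82.7 and 79.3 CPM in the rapeseed libraries, against 84.8, 88.1 and 76.0 CPM in the non-pollen libraries. Its pear and rapeseed libraries both overlapped the non-pollen range, and neither change passed the threshold under TMM, at 0.11 (standard error 0.0505, adjusted p = 0.0661, and 0.65 with adjusted p = 9.66e-10 under library totals) in pear and -0.03 (standard error 0.0505, adjusted p = 0.666, but 0.46 with adjusted p = 1.17e-07 under library totals) in rapeseed. Peroxiredoxin 5 of mitochondria, LOC107996137, had 114, 116 and 105 CPM in the pear libraries and 104, 105 and 105 CPM in the rapeseed libraries, against 97.7, 94.3 and 97.8 CPM in the non-pollen libraries. Both pollen groups lay above the non-pollen libraries, with 0.21 (standard error 0.0435, adjusted p = 0.000324) in pear and 0.12 (standard error 0.0435, adjusted p = 0.0277) in rapeseed. Peroxiredoxin-6-like LOC107998928 gave -0.12 (adjusted p = 0.197, but 0.41 with adjusted p = 0.000173 under library totals) in pear. In rapeseed it stood at -0.11 (adjusted p = 0.222, but 0.38 with adjusted p = 0.000423 under library totals). An uncharacterized gene with the KEGG entry of a superoxide dismutase, LOC107992653, gave 0.19 (adjusted p = 0.102, and 0.73 with adjusted p = 1.59e-06 under library totals) in pear. Rapeseed gave 0.26 (adjusted p = 0.0282) for it.

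**Figure D3:**
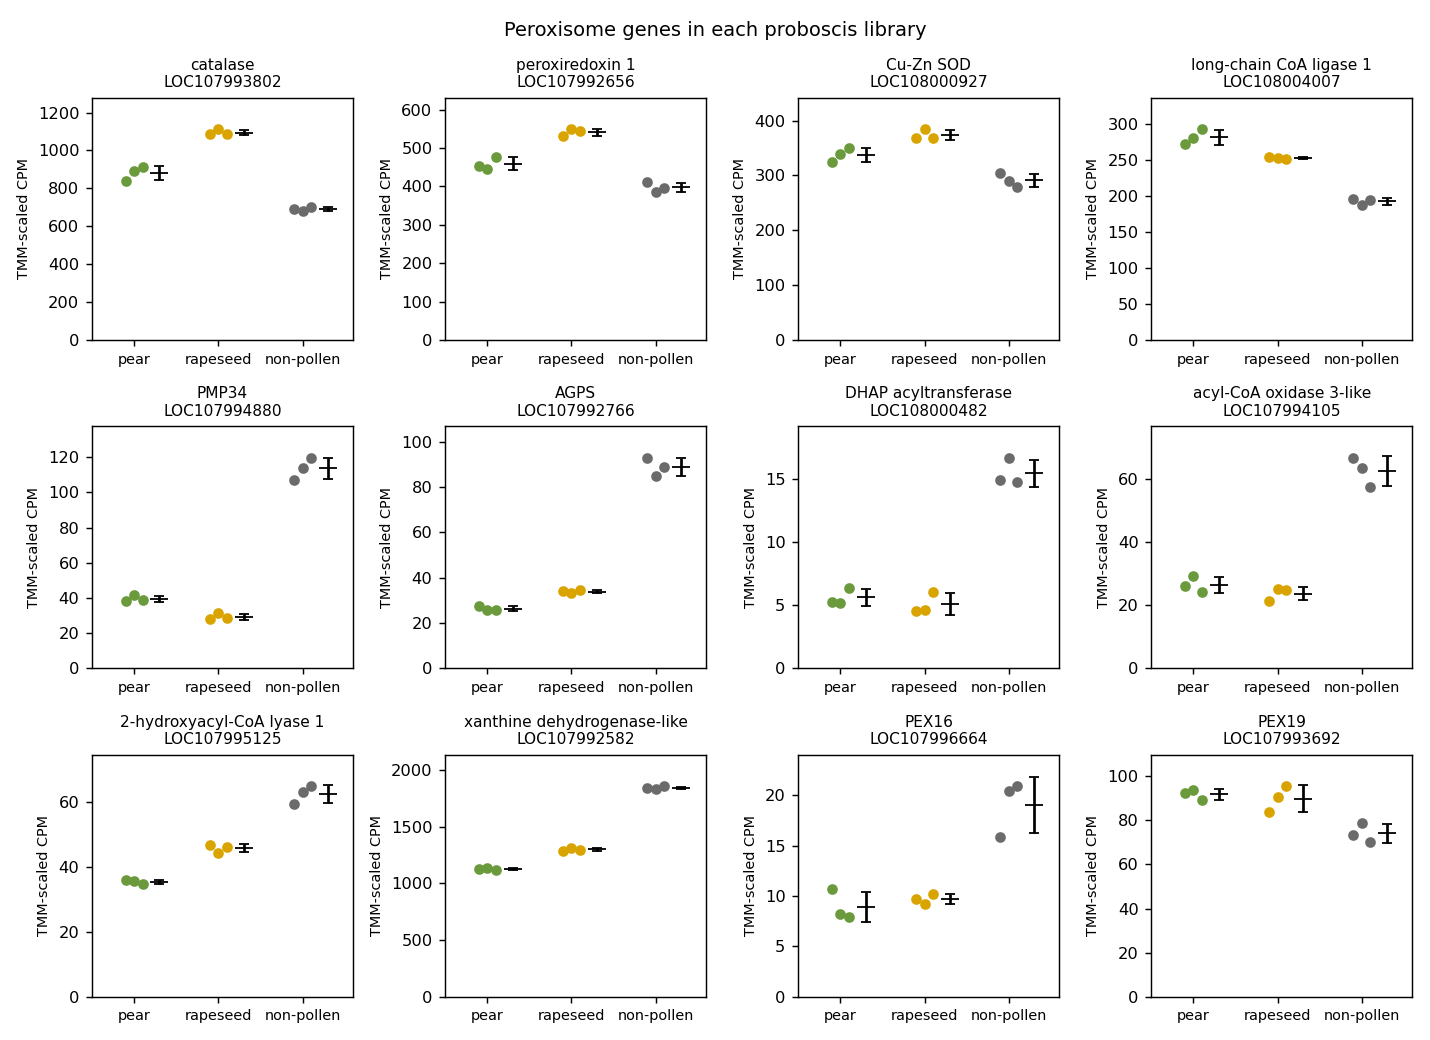
TMM-scaled CPM (vertical axes, starting at 0) of 12 peroxisome genes in the pear, rapeseed and non-pollen libraries. Points are the 3 libraries of a group and black marks are mean ± SD; catalase, peroxiredoxin 1 and the Cu-Zn superoxide dismutase are lowest in non-pollen, while PMP34, alkyldihydroxyacetonephosphate synthase (AGPS), dihydroxyacetone phosphate (DHAP) acyltransferase, acyl-CoA oxidase 3-like and PEX16 are highest there.

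The role called beta-oxidation held members that moved in both directions. It includes 2-hydroxyacyl-CoA lyase 1, which acts in alpha-oxidation, and malonyl-CoA decarboxylase, so its counts and medians are not those of beta-oxidation alone. Of 11 tested, 2 were higher and 7 lower in pear, and 2 higher and 5 lower in rapeseed. This made 81.8% called in pear and 63.6% in rapeseed, beside 55.7% and 59.3% of all tested genes. Library totals gave 7 higher and 2 lower in pear and 7 higher and 1 lower in rapeseed. The median was -0.22 in pear and -0.07 in rapeseed, against 0.32 and 0.42 with library totals, and the summed level was 861 to 874 CPM in pear and 881 to 888 CPM in rapeseed, against 871 to 898 CPM in non-pollen libraries. With library totals that level was 969.6 to 1004 CPM in pear and 975 to 986 in rapeseed, against 694 to 707 in non-pollen libraries. The 2 acyl-CoA oxidases went apart. Acyl-CoA oxidases catalyse the first, peroxide-forming step. Acyl-CoA oxidase 3-like (LOC107994105, on the minus strand of scaffold NW_016018344.1 from 1003741 to 1031053) had 26.0, 29.2 and 24.3 CPM in the pear libraries and 21.2, 25.1 and 24.7 CPM in the rapeseed libraries, against 66.7, 63.5 and 57.5 CPM in the non-pollen libraries. Every pollen library was below every non-pollen library. The change was -1.24 (standard error 0.0800, adjusted p = 2.33e-11) in pear and -1.40 (standard error 0.0803, adjusted p = 2.71e-12) in rapeseed. Its gene model spans 27313 bases and overlaps 5 other models. Among these, the glutamate receptor-like LOC107994104, which shares 1992 bases on the opposite strand, had 1.21, 2.51 and 1.61 CPM in the pear libraries and 2.17, 3.07 and 2.56 CPM in the rapeseed libraries, against 7.57, 7.60 and 8.07 CPM in the non-pollen libraries. Its pollen libraries were all below its non-pollen libraries, at -2.12 (standard error 0.234, adjusted p = 1.18e-07) in pear and -1.58 (standard error 0.226, adjusted p = 4.31e-06) in rapeseed. Another, the mediator subunit 13 gene LOC107994103, shares 8493 bases on the opposite strand and averaged 122.6 CPM in pear and 134 CPM in rapeseed, against 116 CPM in non-pollen, with log2 fold changes of 0.08 (adjusted p = 0.191, and 0.61 with adjusted p = 1.73e-09 under library totals) and 0.20 (adjusted p = 0.00127). On the same strand LOC107994108 shares 1852 bases. It averaged 17.3 CPM in pear and 19.3 CPM in rapeseed, against 25.7 CPM in non-pollen. Pear gave -0.57 (adjusted p = 2.21e-05, and -0.03 with adjusted p = 0.76 under library totals). Rapeseed gave -0.41 (adjusted p = 0.000603, but 0.08 with adjusted p = 0.438 under library totals). How far reads of these models entered the count of the oxidase was not tested. Acyl-CoA oxidase 1 (LOC107993340) was instead higher, at 0.21 (adjusted p = 0.00643) in pear. For rapeseed it was 0.41 (adjusted p = 7.84e-06).

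2-hydroxyacyl-CoA lyase 1 (LOC107995125, on the minus strand of scaffold NW_016018567.1 from 156200 to 160894) acts in alpha-oxidation, which shortens branched fatty acids by a single carbon so that beta-oxidation can take them up. It had 35.9, 35.6 and 34.7 CPM in the pear libraries and 46.8, 44.3 and 46.2 CPM in the rapeseed libraries, against 59.4, 62.9 and 64.7 CPM in the non-pollen libraries. The 3 groups did not overlap, with pear lowest. The change was -0.82 (standard error 0.0544, adjusted p = 3.89e-11) in pear and -0.45 (standard error 0.0536, adjusted p = 3.67e-07, but 0.04 with adjusted p = 0.488 under library totals) in rapeseed. The sialin gene LOC107995127 shares 1192 of its bases on the opposite strand, and averaged 50.7 CPM in pear and 52.4 CPM in rapeseed, against 151 CPM in non-pollen, with log2 fold changes of -1.58 (adjusted p = 1.66e-16) and -1.53 (adjusted p = 2.40e-16). How far reads of sialin entered the count of the lyase was not tested. Enoyl-CoA delta isomerase 3 (LOC107999492), an auxiliary enzyme for unsaturated fatty acids, had 2.64, 1.92 and 2.69 CPM in the pear libraries and 2.102, 1.77 and 2.89 CPM in the rapeseed libraries, against 2.97, 5.42 and 3.98 CPM in the non-pollen libraries. These low levels lay below the non-pollen range in each pollen library, with -0.78 (standard error 0.254, adjusted p = 0.013, and -0.25 with adjusted p = 0.378 under library totals) in pear and -0.88 (standard error 0.254, adjusted p = 0.00538, and -0.39 with adjusted p = 0.171 under library totals) in rapeseed.

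Long-chain-fatty-acid-CoA ligase 1 (LOC108004007), which activates fatty acids with coenzyme A, was the other higher member of the role besides acyl-CoA oxidase 1. It had 272, 281 and 292 CPM in the pear libraries and 254, 253 and 252 CPM in the rapeseed libraries, against 195, 187 and 195 CPM in the non-pollen libraries. None of its groups overlapped, and pear was highest. The change was 0.55 (standard error 0.0359, adjusted p = 2.87e-11) in pear and 0.39 (standard error 0.0359, adjusted p = 5.11e-09) in rapeseed. Long-chain-fatty-acid-CoA ligase 4 (LOC107992566) gave 0.0028 (adjusted p = 0.955, and 0.54 with adjusted p = 5.29e-11 under library totals) in pear. Its rapeseed value was -0.01 (adjusted p = 0.916, but 0.49 with adjusted p = 2.39e-10 under library totals). The core enzymes after the oxidase, the multifunctional enzyme type 2 (LOC107999187) and the non-specific lipid-transfer protein (LOC107999394), whose long form carries a thiolase in mammals, were under TMM lower in pear and not called in rapeseed. The multifunctional enzyme gave -0.22 (adjusted p = 0.000171, but 0.32 with adjusted p = 6.04e-07 under library totals) in pear. In rapeseed it stood at -0.06 (adjusted p = 0.266, but 0.44 with adjusted p = 7.64e-09 under library totals). The lipid-transfer protein gave -0.22 (adjusted p = 0.000272, but 0.32 with adjusted p = 6e-06 under library totals) in pear. Rapeseed gave 0.02 (adjusted p = 0.656, and 0.52 with adjusted p = 9.27e-09 under library totals) for it. Alpha-methylacyl-CoA racemase (LOC107993894), which sets the stereochemistry that branched fatty acids need, gave -0.35 (adjusted p = 0.000767, but 0.18 with adjusted p = 0.0558 under library totals) in pear. For rapeseed it was -0.35 (adjusted p = 0.000885, but 0.15 with adjusted p = 0.122 under library totals).

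All 4 genes of ether lipid and isoprenoid synthesis were lower in pear and in rapeseed, beside 27.2% and 30% of all tested genes. In either direction 55.7% and 59.3% of all tested genes were called. Library totals gave 2 of 4 lower in each group, none higher. The median was -1.13 in pear and -1.05 in rapeseed, against -0.60 and -0.56 with library totals. Summed over the 4 genes the level was 60.1 to 62.4 CPM in pear and 66.1 to 71.2 CPM in rapeseed, against 151 to 154 CPM in non-pollen libraries. Ether lipids, which include the plasmalogens, are begun in peroxisomes by an acyltransferase that loads dihydroxyacetone phosphate and a synthase that swaps the acyl chain for an alkyl chain. The synthase, alkyldihydroxyacetonephosphate synthase (LOC107992766, on the minus strand of scaffold NW_016017900.1 from 1177993 to 1189072), had 27.5, 25.5 and 25.8 CPM in the pear libraries and 34.0, 33.3 and 34.3 CPM in the rapeseed libraries, against 92.8, 84.9 and 88.8 CPM in the non-pollen libraries. Every pollen library was below every non-pollen library. The change was -1.76 (standard error 0.0556, adjusted p = 1.34e-16) in pear and -1.39 (standard error 0.0545, adjusted p = 4.54e-15) in rapeseed, the lowest value of any member outside the genes with conflicting annotation in pear. It shares 73 bases with the TATA-binding protein-associated factor LOC107992764 on the opposite strand, whose log2 fold changes were -0.27 (adjusted p = 0.00108, but 0.27 with adjusted p = 0.000376 under library totals) in pear and -0.26 (adjusted p = 0.00130, but 0.23 with adjusted p = 0.0013 under library totals) in rapeseed. Dihydroxyacetone phosphate acyltransferase (LOC108000482, on the plus strand of scaffold NW_016019441.1 from 3923574 to 3927098) had 5.26, 5.19 and 6.39 CPM in the pear libraries and 4.56, 4.62 and 6.06 CPM in the rapeseed libraries, against 14.9, 16.7 and 14.8 CPM in the non-pollen libraries. The pollen groups overlapped each other and lay below all non-pollen libraries. The change was -1.46 (standard error 0.140, adjusted p = 1.35e-08) in pear and -1.60 (standard error 0.140, adjusted p = 2.78e-09) in rapeseed.

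The other 2 genes of this role act in the mevalonate pathway, which makes the isoprenoid units of juvenile hormone and other compounds in insects. Phosphomevalonate kinase (LOC108000952) had 4.08, 6.16 and 6.20 CPM in the pear libraries and 5.78, 5.59 and 6.22 CPM in the rapeseed libraries, against 9.58, 9.33 and 9.76 CPM in the non-pollen libraries. All pollen libraries were below the non-pollen ones, with -0.80 (standard error 0.158, adjusted p = 0.000203, and -0.27 with adjusted p = 0.114 under library totals) in pear and -0.70 (standard error 0.157, adjusted p = 0.000653, and -0.21 with adjusted p = 0.215 under library totals) in rapeseed. Mevalonate kinase (LOC107992778) gave -0.67 (adjusted p = 1.31e-06, and -0.14 with adjusted p = 0.181 under library totals) in pear. Its rapeseed value was -0.69 (adjusted p = 6.99e-07, and -0.20 with adjusted p = 0.053 under library totals). It shares 262 bases on the same strand with the bolA-like gene LOC107992780, which KEGG annotates as a mevalonate kinase too. That gene had 2.38, 4.14 and 3.12 CPM in the pear libraries and 3.41, 2.59 and 3.05 CPM in the rapeseed libraries, against 4.87, 5.95 and 6.27 CPM in the non-pollen libraries. Its pollen groups were both below non-pollen, with -0.83 (standard error 0.213, adjusted p = 0.0024, and -0.30 with adjusted p = 0.204 under library totals) in pear and -0.92 (standard error 0.213, adjusted p = 0.000919, and -0.43 with adjusted p = 0.0752 under library totals) in rapeseed. The glucosyltransferase gene LOC107992777 shares 1972 of the 3502 bases of LOC107992780 on the same strand. It averaged 3.73 CPM in pear and 3.27 CPM in rapeseed, against 9.25 CPM in non-pollen. The log2 fold changes were -1.31 (adjusted p = 5.73e-06) in pear and -1.50 (adjusted p = 9.05e-07) in rapeseed. How far its reads entered the count of the bolA-like gene was not tested.

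**Figure D4:**
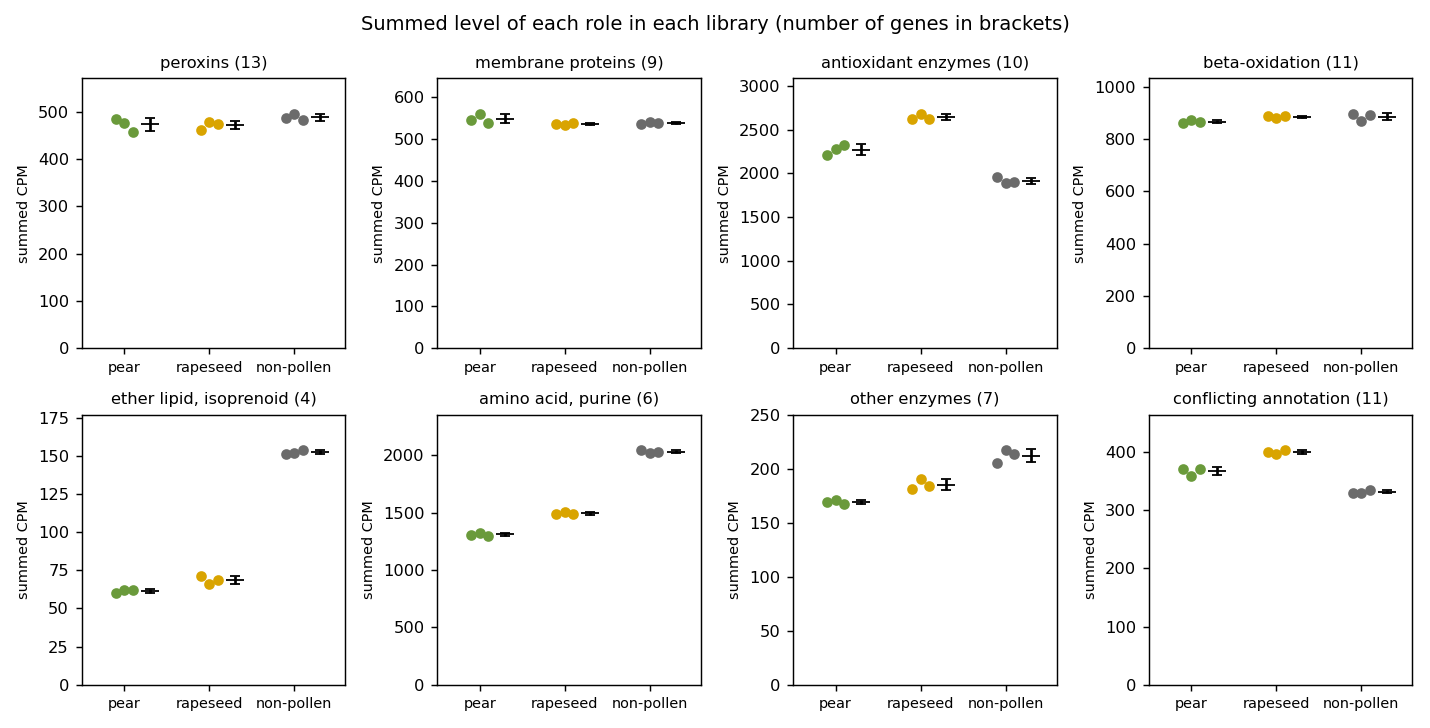
TMM-scaled CPM summed over the genes of each role (vertical axes, starting at 0) in the pear, rapeseed and non-pollen libraries, with points for libraries and black marks for mean ± SD of 3. The antioxidant sum is lowest in non-pollen (1893 to 1957 CPM) and the ether lipid and isoprenoid sum highest there (151 to 154 CPM), and with library totals alone these orders against non-pollen stay. With library totals the sums of peroxins, membrane proteins, beta-oxidation and other enzymes are above non-pollen in every pollen library, while under TMM other enzymes lie below it in both pollen groups and peroxins in rapeseed, and the rapeseed sum for amino acid and purine oxidation is above non-pollen instead of below.

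The peroxins were called about as often as all tested genes. Of 13 tested, 7 (53.8%, beside 55.7% of all tested genes) were called in pear and 8 (61.5%, beside 59.3%) in rapeseed. In pear 2 were higher and 5 lower, and in rapeseed 2 were higher and 6 lower, while library totals gave 7 higher and 1 lower in pear and 8 higher and 1 lower in rapeseed. Summed over the role the level was 458 to 486 CPM in pear and 462 to 479 CPM in rapeseed, against 482 to 496 CPM in non-pollen libraries. With library totals it was 512 to 567 CPM in pear and 513 to 530.3 in rapeseed, against 377 to 397 in non-pollen libraries. PEX16 (LOC107996664, on the plus strand of scaffold NW_016017457.1 from 626091 to 627509), a membrane protein needed to form peroxisomal membrane, had 10.7, 8.21 and 7.96 CPM in the pear libraries and 9.72, 9.25 and 10.2 CPM in the rapeseed libraries, against 15.8, 20.4 and 20.9 CPM in the non-pollen libraries. Its pollen libraries were all below the non-pollen ones. The change was -1.09 (standard error 0.127, adjusted p = 2.47e-07) in pear and -0.97 (standard error 0.126, adjusted p = 1.04e-06) in rapeseed, and stayed below 0 and past the threshold in each of the 6 scalings. Under TMM this was the largest change of a peroxin, while with library totals PEX16 gave -0.56 (adjusted p = 0.00109) in pear and -0.48 (adjusted p = 0.00348) in rapeseed, a smaller size than the 0.84 (adjusted p = 9.21e-11) and 0.77 (adjusted p = 3.66e-10) of PEX19.

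PEX3 (LOC107997529) and PEX19 (LOC107993692) work with PEX16 in placing membrane proteins. PEX3 gave -0.26 (adjusted p = 0.00328, but 0.27 with adjusted p = 0.00217 under library totals) in pear. In rapeseed it stood at -0.26 (adjusted p = 0.00284, but 0.23 with adjusted p = 0.0084 under library totals). PEX19 had 92.5, 93.8 and 89.1 CPM in the pear libraries and 83.6, 90.7 and 95.4 CPM in the rapeseed libraries, against 73.2, 78.9 and 70.0 CPM in the non-pollen libraries, and both pollen groups were above non-pollen, with 0.31 (standard error 0.0532, adjusted p = 4.47e-05) in pear and 0.28 (standard error 0.0531, adjusted p = 0.000129) in rapeseed. The other higher peroxin was the targeting signal 1 receptor (LOC107999688), which binds matrix enzymes in the cytosol, at 0.15 (adjusted p = 0.00488) in pear. Rapeseed gave 0.10 (adjusted p = 0.0463) for it. PEX13 (LOC108001309), part of the docking site of that receptor, had 24.1, 22.0 and 20.7 CPM in the pear libraries and 24.3, 24.6 and 21.8 CPM in the rapeseed libraries, against 27.0, 30.7 and 34.4 CPM in the non-pollen libraries. Both pollen groups were below the lowest non-pollen library, with -0.47 (standard error 0.0912, adjusted p = 0.00019, but 0.07 with adjusted p = 0.523 under library totals) in pear and -0.38 (standard error 0.0908, adjusted p = 0.0011, but 0.11 with adjusted p = 0.327 under library totals) in rapeseed. Its partner PEX14 (LOC107993396) gave -0.10 (adjusted p = 0.158, but 0.43 with adjusted p = 8.84e-06 under library totals) in pear. For rapeseed it was -0.24 (adjusted p = 0.00192, but 0.25 with adjusted p = 0.00217 under library totals).

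PEX10 (LOC108002494), a ubiquitin ligase subunit for recycling the import receptor, had 1.98, 2.79 and 2.65 CPM in the pear libraries and 2.39, 2.47 and 2.40 CPM in the rapeseed libraries, against 4.81, 3.15 and 2.98 CPM in the non-pollen libraries. The values were -0.55 (standard error 0.233, adjusted p = 0.0519) in pear, which missed the threshold, and -0.58 (standard error 0.233, adjusted p = 0.0366, and -0.09 with adjusted p = 0.73 under library totals) in rapeseed. Between the pollen groups no peroxin was called, beside 12.9% of all tested genes.

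Of the 9 membrane proteins and transporters, 2 were higher and 4 lower in pear, and 2 higher and 3 lower in rapeseed. Under TMM 66.7% were called in pear and 55.6% in rapeseed, beside 55.7% and 59.3% of all tested genes. Library totals gave 5 higher and 1 lower in both. The summed level was 539 to 561 CPM in pear and 533 to 538 CPM in rapeseed, against 537 to 541 CPM in non-pollen libraries. With library totals it was 603 to 643 CPM in pear and 591 to 596 in rapeseed, against 416 to 433 in non-pollen libraries. PMP34 (LOC107994880, on the plus strand of scaffold NW_016018566.1 from 802114 to 805141) is a carrier of adenine nucleotides and coenzyme A across the peroxisomal membrane. It had 38.2, 41.4 and 38.9 CPM in the pear libraries and 28.2, 31.3 and 28.7 CPM in the rapeseed libraries, against 107, 114 and 119.5 CPM in the non-pollen libraries. Non-pollen libraries were highest and rapeseed libraries lowest, with no overlap between any groups. The change was -1.52 (standard error 0.0558, adjusted p = 1.62e-15) in pear and -1.95 (standard error 0.0568, adjusted p = 2.95e-17) in rapeseed. A second gene described as PMP34, LOC107994881, lies on the same scaffold without the KEGG term and is no member. It averaged 4.71 CPM in pear and 4.12 CPM in rapeseed, against 13.5 CPM in non-pollen, with log2 fold changes of -1.52 (adjusted p = 1.46e-08) and -1.71 (adjusted p = 2.09e-09). Reads that fit both copies cannot be told apart.

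The Mpv17 family are small membrane proteins of mitochondria and peroxisomes. The mpv17-like gene LOC107998065 had 213, 224 and 219 CPM in the pear libraries and 205, 204 and 203 CPM in the rapeseed libraries, against 146, 146 and 141 CPM in the non-pollen libraries. The 3 groups did not overlap, pear was highest, and the change was 0.60 (standard error 0.0354, adjusted p = 5.05e-12) in pear and 0.50 (standard error 0.0353, adjusted p = 8.16e-11) in rapeseed. Its relative LOC108002885, mpv17-like protein 2, had 103, 96.2 and 86.1 CPM in the pear libraries and 100.7, 99.3 and 100.1 CPM in the rapeseed libraries, against 66.0, 67.4 and 65.8 CPM in the non-pollen libraries. Both pollen groups were above non-pollen, with 0.52 (standard error 0.0525, adjusted p = 3.33e-08) in pear and 0.59 (standard error 0.0524, adjusted p = 3.38e-09) in rapeseed. PXMP2/4 family protein 4 (LOC114577461) was at low levels in the other direction, with 2.94, 2.47 and 2.93 CPM in the pear libraries and 3.18, 3.51 and 3.01 CPM in the rapeseed libraries, against 5.53, 4.86 and 4.80 CPM in the non-pollen libraries. The pollen libraries lay below the non-pollen range, with -0.86 (standard error 0.189, adjusted p = 0.000584, and -0.33 with adjusted p = 0.108 under library totals) in pear and -0.64 (standard error 0.186, adjusted p = 0.0056, and -0.15 with adjusted p = 0.453 under library totals) in rapeseed. All of its 1286 bases lie within the gene model of LOC107997624 on the same strand, whose values were -0.09 (adjusted p = 0.393, but 0.45 with adjusted p = 0.000102 under library totals) in pear and -0.18 (adjusted p = 0.0675, but 0.31 with adjusted p = 0.00294 under library totals) in rapeseed. ABCD3 (LOC107992634), a transporter of the family that carries fatty acyl-CoA into peroxisomes, gave -0.14 (adjusted p = 0.0437, but 0.39 with adjusted p = 7.37e-06 under library totals) in pear. Its rapeseed value was -0.04 (adjusted p = 0.57, but 0.45 with adjusted p = 1.36e-06 under library totals).

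In amino acid and purine oxidation, 1 of 5 tested members was higher and 2 lower in pear. In rapeseed 3 were higher and 2 lower. Called were thus 60% in pear and 100% in rapeseed, beside 55.7% and 59.3% of all tested genes. Library totals gave 3 higher and 2 lower in pear and 3 higher and none lower in rapeseed. The xanthine dehydrogenase/oxidase-like gene LOC107992582, on the minus strand of scaffold NW_016017867.1 from 219945 to 233563, of a family that turns hypoxanthine and xanthine into uric acid, was the member with the most CPM. It had 1128, 1136 and 1118 CPM in the pear libraries and 1289, 1313 and 1292 CPM in the rapeseed libraries, against 1842, 1835 and 1854 CPM in the non-pollen libraries. The 3 groups did not overlap, with pear lowest. The change was -0.71 (standard error 0.0290, adjusted p = 1.02e-14) in pear and -0.51 (standard error 0.0289, adjusted p = 2.53e-12, and -0.01 with adjusted p = 0.581 under library totals) in rapeseed, and with library totals the pear value was -0.17 (adjusted p = 1.48e-06). A second gene described as xanthine dehydrogenase (LOC108003909) gave 0.11 (adjusted p = 0.071, and 0.64 with adjusted p = 2.08e-10 under library totals) in pear. In rapeseed it stood at 0.14 (adjusted p = 0.0216).

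D-aspartate oxidase (LOC108003311), which oxidises acidic D-amino acids and releases hydrogen peroxide, had 24.2, 25.5 and 24.8 CPM in the pear libraries and 29.6, 28.9 and 29.5 CPM in the rapeseed libraries, against 42.8, 40.4 and 37.9 CPM in the non-pollen libraries. The groups were apart with pear lowest, at -0.70 (standard error 0.0678, adjusted p = 1.55e-08) in pear and -0.46 (standard error 0.0671, adjusted p = 5.27e-06, but 0.03 with adjusted p = 0.667 under library totals) in rapeseed. The (S)-2-hydroxy-acid oxidase GLO5 (LOC107997612), which acts on glycolate and other hydroxy acids, had 9.25, 10.7 and 11.9 CPM in the pear libraries and 13.3, 15.6 and 14.0 CPM in the rapeseed libraries, against 9.28, 9.95 and 11.2 CPM in the non-pollen libraries. Its pear and non-pollen libraries overlapped while the rapeseed libraries lay above both, with 0.06 (standard error 0.118, adjusted p = 0.67, and 0.59 with adjusted p = 0.000147 under library totals) in pear and 0.49 (standard error 0.117, adjusted p = 0.00117) in rapeseed. The uncharacterized LOC107997611 shares 4700 of the 6397 bases of GLO5 on the opposite strand. It averaged 5.62 CPM in pear and 5.78 CPM in rapeseed, against 7.42 CPM in non-pollen. Rapeseed against pear it gave 0.04 (adjusted p = 0.922, but -0.0036 with adjusted p = 0.991 under library totals). How far its reads entered the count of GLO5 was not tested. Serine-pyruvate aminotransferase (LOC108001596), the enzyme that detoxifies glyoxylate in mammals, had 10.98, 11.7 and 11.9 CPM in the pear libraries and 12.4, 10.9 and 11.3 CPM in the rapeseed libraries, against 9.34, 10.5 and 7.62 CPM in the non-pollen libraries. Both pollen groups were above the non-pollen range, with 0.33 (standard error 0.121, adjusted p = 0.0245) in pear and 0.33 (standard error 0.121, adjusted p = 0.0235) in rapeseed.

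None of the 7 other enzymes was higher against non-pollen under TMM, with 5 lower in pear and 3 in rapeseed. These were 71.4% and 42.9% of the 7, beside 55.7% and 59.3% of all tested genes called in either direction. Library totals gave 3 higher and none lower in both. Hydroxysteroid dehydrogenase-like protein 2 (LOC107997087) had 35.6, 34.3 and 31.1 CPM in the pear libraries and 36.8, 34.8 and 35.4 CPM in the rapeseed libraries, against 48.8, 53.4 and 50.2 CPM in the non-pollen libraries. Its pollen groups were below non-pollen, at -0.59 (standard error 0.0641, adjusted p = 8.37e-08, and -0.06 with adjusted p = 0.446 under library totals) in pear and -0.51 (standard error 0.0638, adjusted p = 6.26e-07, and -0.02 with adjusted p = 0.8 under library totals) in rapeseed. It lies 5496 bases from the chloroplastic-like superoxide dismutase LOC107996551, which changed in the other direction. Tropinone reductase-like 3 (LOC108001177) had 29.8, 29.8 and 27.9 CPM in the pear libraries and 25.9, 28.1 and 27.4 CPM in the rapeseed libraries, against 39.1, 40.2 and 36.8 CPM in the non-pollen libraries. All pollen libraries were below all non-pollen ones, with -0.41 (standard error 0.0680, adjusted p = 3.24e-05, but 0.13 with adjusted p = 0.101 under library totals) in pear and -0.51 (standard error 0.0680, adjusted p = 1.47e-06, and -0.02 with adjusted p = 0.784 under library totals) in rapeseed. All of its 1403 bases lie within LOC108001176 on the opposite strand. That gene averaged 27.0 CPM in pear and 28.5 CPM in rapeseed, against 32.0 CPM in non-pollen. It gave -0.25 (adjusted p = 0.0107, but 0.29 with adjusted p = 0.00319 under library totals) in pear. Its rapeseed value was -0.17 (adjusted p = 0.0626, but 0.32 with adjusted p = 0.00143 under library totals). Hydroxymethylglutaryl-CoA lyase (LOC107998032), which makes ketone bodies and breaks down leucine, had 10.4, 10.3 and 10.6 CPM in the pear libraries and 10.9, 9.99 and 11.1 CPM in the rapeseed libraries, against 13.4, 13.8 and 15.7 CPM in the non-pollen libraries. The pollen groups were below non-pollen, with -0.46 (standard error 0.104, adjusted p = 0.000751, but 0.07 with adjusted p = 0.534 under library totals) in pear and -0.43 (standard error 0.103, adjusted p = 0.00137, but 0.07 with adjusted p = 0.583 under library totals) in rapeseed. Epoxide hydrolase 4-like (LOC107996715) had 1.85, 1.79 and 1.78 CPM in the pear libraries and 3.01, 2.37 and 2.098 CPM in the rapeseed libraries, against 2.34, 3.21 and 3.49 CPM in the non-pollen libraries. Only pear lay below non-pollen without overlap, with -0.75 (standard error 0.235, adjusted p = 0.0106, and -0.21 with adjusted p = 0.405 under library totals), and the rapeseed value was -0.28 (standard error 0.230, adjusted p = 0.305, but 0.21 with adjusted p = 0.416 under library totals).

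Of the 7 tested genes with conflicting annotation, 3 were higher and 3 lower in both pear and rapeseed. This was 85.7% in both, beside 55.7% and 59.3% of all tested genes. Library totals gave 4 higher and 2 lower in both. Without the 11 genes with conflicting annotation the counts under TMM were 12 higher and 27 lower of 57 in pear. In rapeseed they were 15 higher and 23 lower. Sensory neuron membrane protein 1 (LOC108001223), a pheromone co-receptor of the CD36 family in other insects that KEGG lists here as a xanthine dehydrogenase, had 83.1, 81.2 and 83.1 CPM in the pear libraries and 107, 107 and 109 CPM in the rapeseed libraries, against 62.4, 66.2 and 66.9 CPM in the non-pollen libraries. The groups were apart with rapeseed highest, at 0.34 (standard error 0.0430, adjusted p = 8.98e-07) in pear and 0.72 (standard error 0.0428, adjusted p = 4.62e-12) in rapeseed. Chemosensory genes (135 genes, 28 tested) summed to 950 to 1032 CPM in pear and 1057 to 1080 CPM in rapeseed, against 724 to 1051 CPM in non-pollen libraries, and their part in this value was not tested. Of the 28, 4 were higher and 6 lower in pear, and 9 higher and 9 lower in rapeseed. This made 35.7% and 64.3% called, beside 55.7% and 59.3% of all tested genes. Library totals gave 16 higher and 4 lower in pear and 12 higher and 4 lower in rapeseed. LOC107992583 alone averaged 596 CPM in pear and 762 CPM in rapeseed, against 561 CPM in non-pollen. The lipid droplet-associated hydrolase LOC107998526 had 10.3, 10.7 and 9.26 CPM in the pear libraries and 9.48, 8.54 and 10.4 CPM in the rapeseed libraries, against 19.2, 18.5 and 15.1 CPM in the non-pollen libraries. The pollen libraries were below the non-pollen range, with -0.80 (standard error 0.115, adjusted p = 5.05e-06) in pear and -0.89 (standard error 0.116, adjusted p = 1.06e-06) in rapeseed.

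Between the pollen sources 18 of the 64 members were called, 16 higher and 2 lower in rapeseed than in pear, which was 28.1% beside 12.9% of all tested genes. Higher members were 25% beside 7.94% of all genes, and lower members 3.13% beside 4.96%, while library totals gave 11 higher and 6 lower. Of 1374 genes called over the whole table with library totals, 40.0% were higher. The median log2 fold change was 0.07 over the members and -0.01 over all tested genes, against 0.03 and -0.05 with library totals. Groups of CPM did not overlap for 28 members (43.8%, beside 30.5% of all genes), and no member reached a fold of 2, beside 0.691% of all tested genes. The count of higher members was 10 without pear replicate 1 and 10 without rapeseed replicate 2, and that of lower members was 4 without pear replicate 3. Of the 16 higher members 11 were called in each of the 6 scalings, and both lower members were.

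The higher members were 4 antioxidant enzymes, 4 of beta-oxidation, 3 of amino acid and purine oxidation, 2 other enzymes, 1 of ether lipid synthesis and 2 with conflicting annotation. Catalase had 1085, 1111 and 1087 CPM in the rapeseed libraries, against 841, 892 and 911 CPM in the pear libraries, and every rapeseed library was above every pear library. The difference was 0.31 (standard error 0.0334, adjusted p = 6.49e-07). For peroxiredoxin 1 the difference was 0.24 (standard error 0.0346, adjusted p = 4.02e-05), for the Cu-Zn superoxide dismutase LOC108000927 it was 0.15 (standard error 0.0380, adjusted p = 0.0122) and for LOC107996551 it was 0.21 (standard error 0.0334, adjusted p = 9.34e-05). The manganese superoxide dismutase LOC107999352 was at -0.14 (standard error 0.0501, adjusted p = 0.0784, and -0.18 with adjusted p = 0.0198 under library totals) and peroxiredoxin 5 at -0.10 (standard error 0.0431, adjusted p = 0.168, and -0.14 with adjusted p = 0.0476 under library totals), both short of the threshold under TMM. The lyase LOC107995125 had 46.8, 44.3 and 46.2 CPM in the rapeseed libraries, against 35.9, 35.6 and 34.7 CPM in the pear libraries, again without overlap, and differed by 0.37 (standard error 0.0543, adjusted p = 4.63e-05). Alkyldihydroxyacetonephosphate synthase, with 34.0, 33.3 and 34.3 CPM in the rapeseed libraries, against 27.5, 25.5 and 25.8 CPM in the pear libraries, differed by 0.37 (standard error 0.0557, adjusted p = 6.74e-05). Sensory neuron membrane protein 1 differed by 0.38 (standard error 0.0421, adjusted p = 9.57e-07) and the xanthine dehydrogenase/oxidase-like LOC107992582 by 0.20 (standard error 0.0289, adjusted p = 3.05e-05). GLO5 showed the largest difference among the higher members at 0.43 (standard error 0.116, adjusted p = 0.0163), with 13.3, 15.6 and 14.0 CPM in the rapeseed libraries, against 9.25, 10.7 and 11.9 CPM in the pear libraries.

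Further along beta-oxidation the lipid-transfer protein LOC107999394 was higher in rapeseed by 0.24 (adjusted p = 0.00053), the multifunctional enzyme type 2 LOC107999187 by 0.16 (adjusted p = 0.0119, and 0.12 with adjusted p = 0.0515 under library totals) and acyl-CoA oxidase 1 by 0.20 (adjusted p = 0.0359, and 0.16 with adjusted p = 0.108 under library totals). The 2 lower members were PMP34 and the ligase LOC108004007. PMP34 had 28.2, 31.3 and 28.7 CPM in the rapeseed libraries, against 38.2, 41.4 and 38.9 CPM in the pear libraries, which did not overlap, and differed by -0.43 (standard error 0.0570, adjusted p = 1.4e-05). The ligase had 254, 253 and 252 CPM in the rapeseed libraries, against 272, 281 and 292 CPM in the pear libraries, likewise without overlap, and differed by -0.15 (standard error 0.0355, adjusted p = 0.00489).

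**Figure D5:**
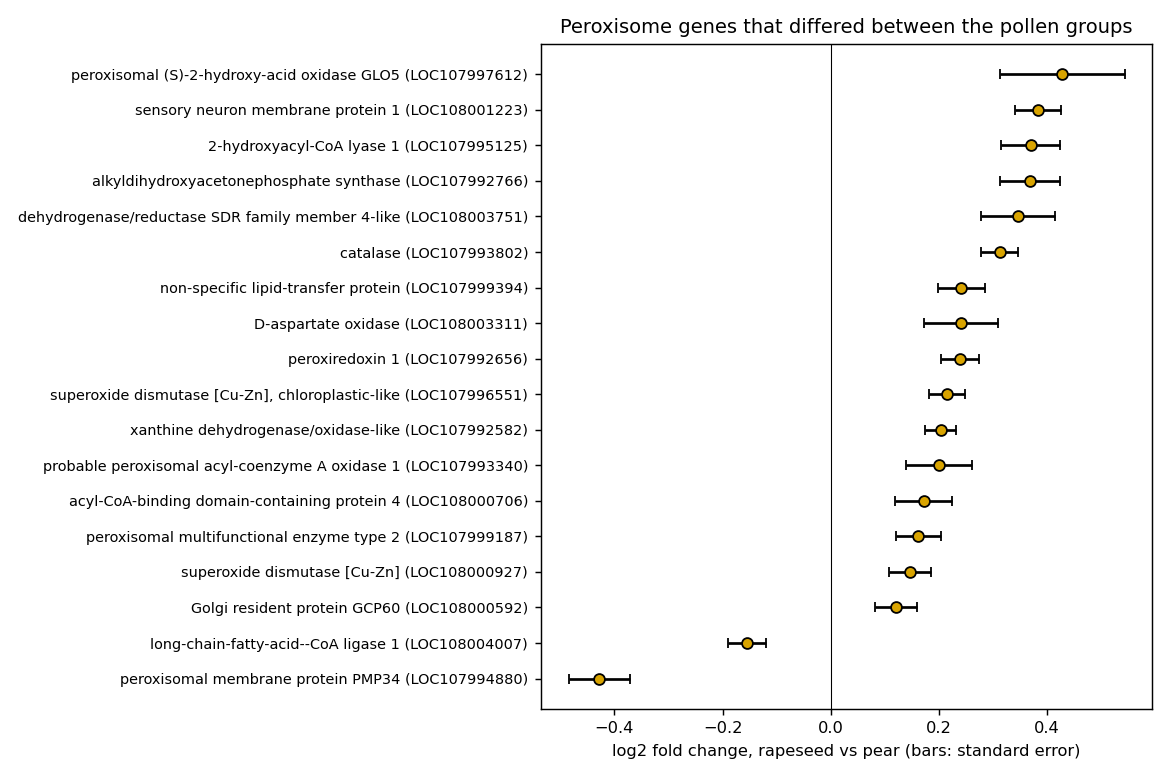
Log2 fold change of rapeseed against pear under TMM scaling (horizontal axis, bars are standard errors of the fit) for the 18 peroxisome genes called at an adjusted p under 0.05. The 16 higher genes run from 0.12 to 0.43, and the 2 lower genes are long-chain-fatty-acid-CoA ligase 1 at -0.15 and PMP34 at -0.43; with library totals alone each of the 18 keeps its sign.

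Genes of related chemistry outside the membership rule were counted in the same fit. Of 22 genes of fatty acid breakdown, 3 were higher and 10 lower in pear and 6 higher and 10 lower in rapeseed. Their medians were -0.13 and -0.16. Under TMM 59.1% were called in pear and 72.7% in rapeseed, beside 55.7% and 59.3% of all tested genes. Library totals gave 15 higher and 1 lower in pear and 14 higher and 1 lower in rapeseed, with medians of 0.40 and 0.33. Alcohol and aldehyde dehydrogenases are among the 22, and whether each gene works in mitochondria was not tested. Redox partners, 29 of them tested, were genes such as thioredoxins, glutathione peroxidases and further peroxiredoxins. Of the 29, 7 were higher and 6 lower in pear and 7 higher and 10 lower in rapeseed, with medians of -0.04 and -0.08. Under TMM 44.8% were called in pear and 58.6% in rapeseed, beside 55.7% and 59.3% of all tested genes. Library totals gave 26 higher and 1 lower in pear and 19 higher and 2 lower in rapeseed, with medians of 0.49 and 0.41. Between the pollen groups 5 genes of fatty acid breakdown were higher and 1 lower in rapeseed, and 3 redox partners were higher and 4 lower. Called were 27.3% and 24.1%, beside 12.9% of all tested genes. Library totals gave 5 higher and 2 lower, and 1 higher and 5 lower.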

How the data were processed

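Proboscis RNA of 9 samples was made into poly(A)-selected, strand-marked libraries and read as 150-base pairs. The authors deposited 1 table with whole-number counts per gene and FPKM, scaled by the authors to gene length and library size. Tools named by the submitters' processing notes, with no step, were edgeR, DESeq2, StringTie 2.1.6, HISAT2 2.2.1 and cutadapt 1.9. Genome build and use of strand in counting were not given in the sources used here; scaffolds are named as in the table. A RefSeq gene table (AcerK_1.0), consulted for names only, held 65 of the members' identifiers.

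The deposited counts were fitted with edgeR 4.0.16 (glmQLFit and glmQLFTest, TMM factors of 1.118 to 1.166 in pear, 1.107 to 1.111 in rapeseed and 0.773 to 0.800 in non-pollen) with the 3 groups in 1 fit, on 9259 genes that reached an FPKM of 1 in 3 or more libraries, and p-values were adjusted over all of them (Benjamini-Hochberg, threshold 0.05). The common biological coefficient of variation was 7.92%. Tested on simulated data modelled on the pear comparison (9259 genes, 200 changed), the fit recovered 43% of genes changed 1.25-fold, 83% at 1.5-fold and 95.5% at 2-fold, with 4, 9 and 5 false calls. Only 200 genes were changed there, while 5155 genes were called in the deposited pear comparison. These rates therefore do not cover errors that come from the scaling of groups with different composition. Replicates were compared pair by pair, and chi-square per degree of freedom was 6.03 to 14.2 over genes with at least 20 counts, so no library repeated another. Alternatives were DESeq2 1.42.0, limma 3.58.1 on log2(FPKM + 1) and log2(FPKM + 0.1), other scalings, filters, samples and thresholds, and leaving out each library.

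Roles were read from descriptions, with 15 corrections. Genes with all 9 values were every catalase and superoxide dismutase, up to 3 called members per role with the largest change and no overlap against non-pollen, up to 6 called members with the smallest p between pollen groups, and the 5 highest in FPKM; PEX19 and long-chain-fatty-acid-CoA ligase 1 were added after their values were seen. Values of some members are not reported here. The members and lists were chosen with earlier results of these data known. The paper supplied describes another experiment and set no choice here.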

Additional observations from a re-analysis of the deposited data

How the results depend on the processing

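Scaling decided most counts of members. Against non-pollen, pear had 37 members higher with library totals and 38 with limma on log2(FPKM + 1) or log2(FPKM + 0.1), in place of 15, and 10 lower with each, in place of 30. Rapeseed had 38 higher with each of the 3, in place of 18, and 7 lower, in place of 26. Rapeseed against pear had 6 lower with library totals and 5 with either FPKM fit, and 4 when only the groups compared were fitted, in place of 2, and 9 higher at an adjusted p under 0.01, in place of 16. Of the genes called over the whole table, 51.2% were higher in pear and 49.4% in rapeseed under TMM, 91.8% and 90.0% with library totals, and 92.0% and 90.3% with FPKM. Between rapeseed and pear the share was 61.6% under TMM, 40.0% with library totals and 42.5% with log2(FPKM + 1). The DESeq2 test, its size factors, TMM without royal jelly proteins and no filter on low counts kept all 6 counts within 1.5 times.

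Leaving out 1 library gave 13 to 17 higher and 28 to 30 lower in pear, 14 to 18 higher and 25 to 26 lower in rapeseed, and 10 to 17 higher and 2 to 4 lower in rapeseed against pear.

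Of 1767 values of the 31 named members, 1617 kept direction and side of the threshold, 79 lost the call, 25 gained it, and 46 changed sign, of which 24 were called under TMM, the alternative or both and 22 under neither. The 24 were these. With library totals, log2(FPKM + 1) and log2(FPKM + 0.1), in this order, PEX13 gave 0.069, 0.084 and 0.088 in pear and 0.106, 0.121 and 0.127 in rapeseed. Hydroxymethylglutaryl-CoA lyase gave 0.073, 0.083 and 0.089 in pear and 0.065, 0.075 and 0.080 in rapeseed. Tropinone reductase-like 3 gave 0.13, 0.14 and 0.14 in pear. In rapeseed the manganese superoxide dismutase gave 0.46, 0.47 and 0.48, 2-hydroxyacyl-CoA lyase 1 gave 0.045, 0.056 and 0.059, and D-aspartate oxidase gave 0.032, 0.042 and 0.044.

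Whether replicates of the same number share more than that number, such as a day or colony, is not given by the labels. Deviations of the 9 same-numbered pairs correlated at -0.0462 to 0.0298, and 0 libraries lay closest to their own number. These values show no common deviation by number but cannot exclude a shared source. With the replicate number as a block 15 members were higher and 29 lower in pear, 17 higher and 25 lower in rapeseed, and 15 higher and 2 lower in rapeseed against pear.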

Other observations

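The fatty acyl-CoA reductases that the membership rule left out carry the KEGG term Peroxisome as well and turn fatty acyl-CoA into fatty alcohols. Of the 11, 9 were tested, of which 4 were higher and 3 lower in pear, 4 higher and 4 lower in rapeseed, and 5 higher and none lower in rapeseed against pear, while library totals gave 4 higher and 2 lower in both pollen groups and 5 higher between them. Under TMM 77.8% of the 9 were called in pear and 88.9% in rapeseed, beside 55.7% and 59.3% of all tested genes. Between the pollen groups 55.6% were called, beside 12.9%. Median log2 fold changes were -0.26 in pear, -0.42 in rapeseed and 0.35 in rapeseed against pear. Library totals gave medians of 0.27, 0.07 and 0.31. The summed level of the 11 was 797 to 815 CPM in pear and 1168 to 1177 CPM in rapeseed, against 653 to 660 CPM in non-pollen libraries. The largest rise was that of LOC108003267, described as putative fatty acyl-CoA reductase CG5065, at 130 CPM in pear and 254 CPM in rapeseed, against 51.9 CPM in non-pollen. Its log2 fold changes were 1.32 in pear (adjusted p = 1.32e-16), 2.29 in rapeseed (adjusted p = 6.71e-21) and 0.97 in rapeseed against pear (adjusted p = 8.85e-14), all from edgeR's quasi-likelihood test with TMM scaling.

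Of 5 genes with a peroxisomal description but without the KEGG term, the spermine oxidase-like LOC108002306, which breaks down polyamines, had 50.3, 53.4 and 54.0 CPM in the pear libraries and 66.0, 65.0 and 66.1 CPM in the rapeseed libraries, against 70.8, 65.9 and 70.5 CPM in the non-pollen libraries. Under TMM pear lay below both other groups. The log2 fold changes were -0.39 in pear (adjusted p = 6.86e-07, but 0.14 with adjusted p = 0.00938 under library totals), -0.07 in rapeseed (adjusted p = 0.220, but 0.42 with adjusted p = 1.12e-07 under library totals) and 0.32 in rapeseed against pear (adjusted p = 6.27e-05). The PEX10-like gene LOC107992937 gave -0.0036 (adjusted p = 0.981, but 0.53 with adjusted p = 0.000343 under library totals) in pear and -0.16 (adjusted p = 0.219, but 0.33 with adjusted p = 0.0142 under library totals) in rapeseed. The spermine oxidase LOC107995910 gave 0.15 (adjusted p = 0.157, and 0.68 with adjusted p = 1.24e-06 under library totals) in pear and 0.04 (adjusted p = 0.747, and 0.53 with adjusted p = 3.11e-05 under library totals) in rapeseed.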
